A study of Homo sapiens with 17 samples.

Results

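The comparison described here is the anti-ac4C pull-down of TDP43-depleted cells against the RNA that entered it. It uses the 3 siTDP43 IP and the 3 siTDP43 input libraries, 6 of the 17 in the series, chosen by their sample titles. The cells were HEK293T, an established human embryonic kidney line, with the genotype label siTARDBP, and were transfected with siRNA against TDP43. Input is poly(A) RNA with no antibody step, IP is the same kind of RNA pulled down with an antibody against ac4C, and IgG, with 3 siTDP43 libraries, is a pull-down with control immunoglobulin from the same kind of cells. The groups labelled WT (3 input, 3 IP and 2 IgG libraries) were the other arm of the study, and their labels name no control siRNA. The labels do not say that replicates came from separate cultures, so p-values measure the spread between these libraries, which may be technical.

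N4-acetylcytidine (ac4C) is cytidine with an acetyl group on the exocyclic amine. The acetyltransferase NAT10 writes it on ribosomal RNA and, with the adaptor THUMPD1, on tRNA, and ac4C has also been described on mRNA. In acRIP-seq, RNA that binds an anti-ac4C antibody is sequenced beside the starting RNA, and RNA that binds control IgG and beads gives the background. TDP43, encoded by TARDBP, is a nuclear protein that binds UG-rich RNA and acts in splicing and RNA stability. The deposited values are raw counts per gene. Totals were 24542434 to 31030950 per input library, 8610070 to 15736165 per IP library and 3013989 to 3436811 per IgG library, and genes with a count numbered 15432 to 15643, 12920 to 13168 and 10247 to 10382. In the table of 23368 genes, 6440 had no count in the 6 IP and input libraries and 12746 passed the filter on low counts and were tested. Gene levels are given in CPM, counts scaled to library size by the trimmed mean of M-values (TMM) over the 9 siTDP43 libraries, and can be compared between libraries for 1 gene but not between genes.

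The knockdown was checked first. In CPM of the library total, without TMM, TARDBP had 163, 169 and 164 in the WT inputs and 101, 105 and 107 in the siTDP43 inputs, so the groups did not overlap, and in edgeR's fit of all 17 libraries it was lower by a log2 change of -0.58 ± 0.08 (SE; adjusted p = 8.63e-08). Many genes differed between these inputs. In 5 classes by GC content, between 567 of 2550 and 1499 of 2549 genes were lower in siTDP43 input at an adjusted p under 0.05. A fall of this kind was therefore not particular to TARDBP. Of the 9 markers of the HEK293 lineage, all had counts in the siTDP43 inputs, with a summed level of 655 to 699 CPM (694 to 722 in IP and 509 to 545 in IgG, with PAX2 at 0 in IP and PAX2, WT1 and LHX1 at 0 in IgG). Of 12 markers of blood, endothelial, liver and other cell types, 8 had a count in input, and PTPRC, TYR, MYH6 and PECAM1 were at 0. Their summed level lay between 8.07 and 10.1 CPM there, between 7.56 and 8.83 in IP, and between 14.5 and 19.9 in IgG.

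Of the 12746 genes tested, 3414 (26.8%) were higher in siTDP43 IP than in siTDP43 input and 3239 (25.4%) were lower, at an adjusted p under 0.05 and a fold above 2 (edgeR quasi-likelihood F test). The median log2 change was -0.09, and the 2 groups of 3 libraries did not overlap for 10555 genes (82.8%). With totals in place of TMM the split was 2771 higher and 4327 lower, and the median over all genes moved to -0.43. Past a 16-fold change, 384 genes were higher and 524 were lower. The IgG pull-down, measured against the same inputs, gave 3145 genes higher (24.7%) and 5227 lower (41.0%), and 1314 genes (10.3%) were higher in IP than in both input and IgG by the rule used here. With totals in place of TMM the IgG split was 2365 higher and 6420 lower, and with the trend with GC content removed it turned to 4798 higher and 3489 lower. IP was directly above IgG for 4328 genes (34.0%) and below it for 1913 (15.0%). Since IP and IgG share the inputs, their values are set side by side below and are not independent of each other. In IgG 2031 of the genes tested had no count or met an input with none, so IgG medians are given with such genes set at the bound that 3 counts per library allow. On that scale the median over all genes was -0.30 for IgG over input and 0.17 for IP over IgG.

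The genes at the top of the comparison were short RNAs that RNA polymerase III makes and short, GC-rich messages. The following sequences show both ends: SNAR-G1, a stretch of coding sequence from CCDC85B, which rose, and one from KIAA0528, which fell. All are 5′ to 3′ on the transcribed strand of hg19. Capitals mark runs of at least 4 adenosines in SNAR-G1 and cytidines, the base that ac4C modifies, in CCDC85B and KIAA0528.
SNAR-G1, chr19:49540277-49540404 (+): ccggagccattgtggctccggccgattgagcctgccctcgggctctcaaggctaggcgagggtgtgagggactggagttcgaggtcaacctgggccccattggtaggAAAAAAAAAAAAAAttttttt
CCDC85B, chr11:65658255-65658374 (+): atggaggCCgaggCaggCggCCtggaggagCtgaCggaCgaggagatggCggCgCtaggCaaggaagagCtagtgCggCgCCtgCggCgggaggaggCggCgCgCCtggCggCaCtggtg
KIAA0528, chr12:22676439-22676558 (-): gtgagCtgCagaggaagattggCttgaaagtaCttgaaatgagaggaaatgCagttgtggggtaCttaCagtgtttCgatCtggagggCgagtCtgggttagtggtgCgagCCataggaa

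BCYRN1 is the gene of BC200, a neuronal and tumour-associated RNA polymerase III transcript that binds poly(A)-binding protein. The table places BCYRN1 on the minus strand of chromosome X in 4 exons of 19, 11, 22 and 139 bases, whereas GENCODE places the 200-base RNA on chromosome 2. In an alignment that allows gaps, 188 of the 191 exon bases in the table match the chromosome 2 RNA, so reads of the copies cannot be told apart over most of their length, and the entry's level is uncertain in the sense that only reads the authors' aligner called unique reach it. Its counts were 2, 0 and 7 in input, 376, 249 and 232 in IP and 529, 531 and 509 in IgG, from libraries of falling depth. In CPM these are 0.086 ± 0.108 (SD, n = 3), 25.3 ± 1.91 and 192 ± 17.4. IP lay above input in every library, with a log2 change of 8.05 ± 0.27 (SE; edgeR adjusted p = 2.34e-17), and every IgG library lay above every IP library, with a log2 change of IP over IgG of -2.92 ± 0.14 (adjusted p = 3.11e-13).

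Of 38 entries for small RNA polymerase III transcripts, 24 had no count in IP and input and 13 were tested. They were BCYRN1, 7 of the 28 SNAR entries, 3 vault RNAs (VTRNA1-1, VTRNA1-2 and VTRNA1-3), RMRP, the RNA of the mitochondrial RNA processing ribonuclease, and RPPH1, the RNA of RNase P. In IP 12 of the 13 were higher than input and none was lower, beside 26.8% and 25.4% of all genes, and the thirteenth was SNAR-C4, which had no input count and 2 IP counts. The SNAR RNAs are short primate transcripts that bind the double-stranded RNA-binding protein NF90. SNAR-G1 had 0.574, 1.05 and 1.66 CPM in input, 45.8, 77.7 and 90.4 in IP and 644, 645 and 692 in IgG. The IP libraries were above the inputs and below the IgG libraries with no overlap, 6.02 ± 0.24 above input and -3.23 ± 0.17 from IgG on the log2 scale. SNAR-E and SNAR-C3 gave the same order, with 5.38 and 4.91 over input and -2.61 and -2.64 over IgG. Against IgG 12 of the 13 were lower in IP, and RPPH1 alone of these was higher, with 151, 158 and 88 counts in the IP libraries and 2, 2 and 4 in IgG. SNAR entries are near-identical copies, so the split of reads between them is uncertain.

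The messages with the largest rises were CCDC85B, FAM176B and, among genes with at least 10 counts in every library and a mean of at least 100, another 11 after CCDC85B. CCDC85B, a single-exon gene at chr11:65657875-65659106 that encodes a coiled-coil repressor of transcription, had 0.887, 1.32 and 1.63 CPM in input, 271, 250 and 240 in IP and 506, 580 and 495 in IgG. Its log2 change was 7.64 ± 0.13 over input (adjusted p = 3.84e-22) and -1.05 ± 0.09 over IgG (adjusted p = 7.14e-10), so IgG was the highest group. FAM176B, now EVA1B, had 0.052, 0.066 and 0.118 CPM in input, 21.1, 18.6 and 18.7 in IP and 29.4, 23.7 and 24.1 in IgG. It rose over input by 7.83 ± 0.32 on the log2 scale from input counts of 2, 2 and 4, and IP did not pass against IgG (-0.40 ± 0.21, adjusted p = 0.0833).

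After CCDC85B came H1FX, a linker histone (log2 change 6.67), STK11, the kinase LKB1 that activates AMPK (6.65), BCL7C, a subunit of SWI/SNF chromatin remodelers (6.60), HDGFRP2 (6.46) and TMEM160 (6.44). GLTSCR2, now NOP53, a ribosome biogenesis factor, followed at 6.41, CHMP4B, an ESCRT-III subunit, at 6.37, FAM100B at 6.30, CDC34, a ubiquitin-conjugating enzyme, at 6.16, MESP1, a transcription factor of early mesoderm, at 6.12, and UBE2S, the ubiquitin chain-elongating enzyme of the anaphase-promoting complex, at 6.11. These 12 were chosen among genes whose IP and input libraries did not overlap, as in 82.8% of all genes tested. Their input was between 0.367 CPM (STK11) and 5.70 CPM (UBE2S). These 12 had a median exonic GC content of 66.4% and a median length of 1480 bases, 11 of them were above 60% GC and 6 lie on chromosome 19. All 12 were also called higher in IgG over input, with a median of 7.02 against 6.43 for IP. Of them, CHMP4B was called higher in IP than in IgG (1.11 ± 0.11) and CCDC85B, STK11, TMEM160 and MESP1 were called lower.

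The largest falls showed another arrangement. M6PR, the cation-dependent mannose 6-phosphate receptor, had 95.7, 93.2 and 94.8 CPM in input, 2.97, 3.57 and 3.99 in IP and no count in any IgG library, with -4.78 ± 0.15 over input. KIAA0528, now C2CD5, which has a part in insulin-stimulated transport of GLUT4, had 38.1, 37.2 and 35.5 CPM in input, 0.945, 0.940 and 1.64 in IP and 17.2, 21.4 and 14.5 in IgG. For KIAA0528 the antibody pull-down therefore lay below both references, at -5.03 ± 0.22 over input and -3.96 ± 0.28 over IgG (adjusted p = 6.19e-11), and none of its exons overlaps another gene.

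The other named genes among the 12 largest falls were BORA, an activator of Aurora A (-5.17), BECN1, the autophagy protein Beclin 1 (-4.69), MIF4GD (-4.61), FBXL12, an F-box protein (-4.26), TBCE, a tubulin-folding cofactor (-4.20), TRMT61B, a mitochondrial tRNA methyltransferase (-4.16), WDR6 (-4.15), PIGO of the GPI-anchor pathway (-4.05) and MAT2A, which makes S-adenosylmethionine (-3.94). In IP they had between 1.58 CPM (BORA) and 10.6 CPM (MAT2A), and all 12 were also called lower in IgG over input. BORA, BECN1, TBCE and PIGO had, like M6PR, no count in IgG, whereas MIF4GD and TRMT61B had 19.6 and 15.4 CPM there and were lower in IP than in IgG (-3.58 ± 0.24 and -3.11 ± 0.29). Their median GC content was 47.1%, and 9 of the 12 share exon bases with another gene on either strand, beside 1947 of the 12746 genes tested.

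**Figure D1:**
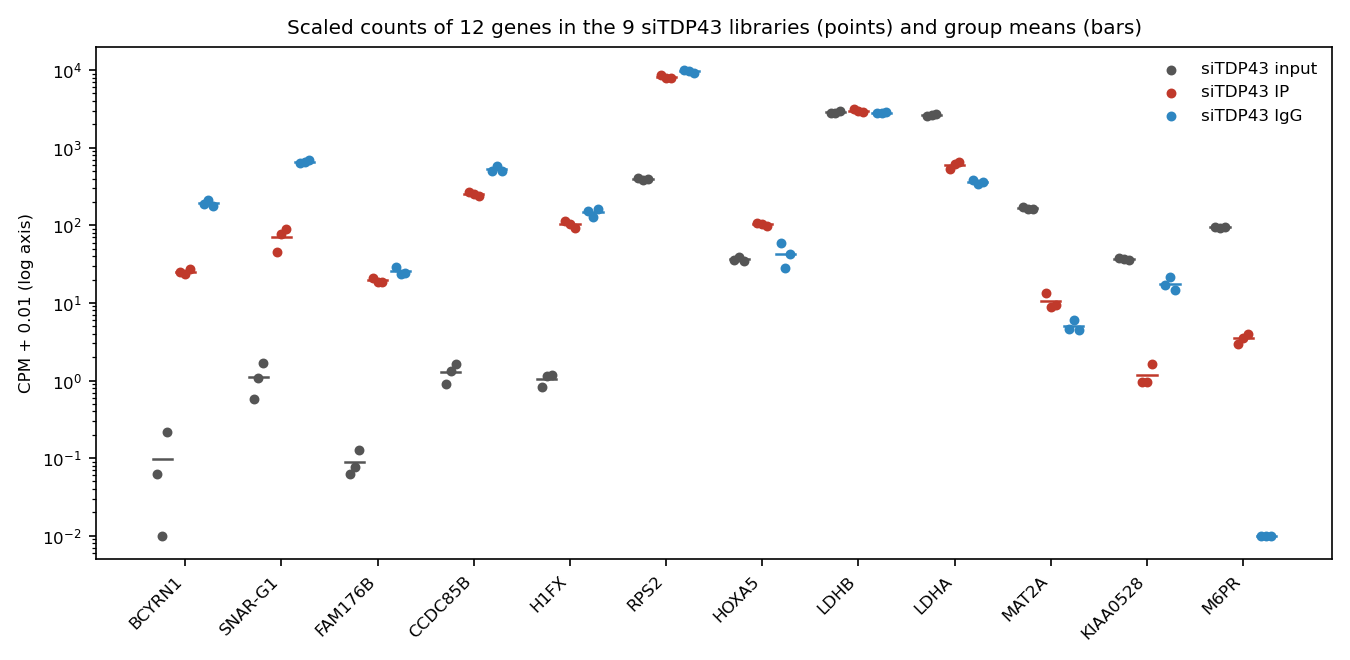
Scaled counts (CPM plus 0.01, log axis) of 12 genes in the 3 siTDP43 input, 3 IP and 3 IgG libraries, with points for libraries and bars for group means. BCYRN1, SNAR-G1, FAM176B, CCDC85B, H1FX and RPS2 were lowest in input and not below IP in IgG, LDHB stayed level, and MAT2A, KIAA0528 and M6PR were highest in input.

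The shared exon bases bear on how these counts were made. In the table, 568 genes have every exon base in common with another gene and none of them has a count in any of the 17 libraries, including 76 that share bases with opposite-strand genes alone. Counting thus used no strand and left out reads that fit more than 1 gene, so a gene with a shared 3′ end is counted over the rest of its transcript. BORA shares 789 bases with DIS3, M6PR 1104 with PHC1 and BECN1 797 with CNTD1, and in each of these 3 none of the last 500 exonic bases was unique. WDR6 shares 775 bases with DALRD3, which fell by 5.92 on the log2 scale itself (adjusted p = 1.11e-10).

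The whole table was grouped in the same way, by an overlap class chosen after these genes had been seen. Of 158 tested genes whose last 500 exonic bases are all shared, 93 (58.9%) were lower and 17 (10.8%) higher in IP, with a median log2 change of -1.33. Their median was -1.15 in IgG over input, with zero groups at their bound. In IgG 101 of the 158 were lower, beside 41.0% of all genes, so genes counted away from their 3′ end were mostly lower in both pull-downs. Of 774 genes with a partly shared 3′ end 32.7% were lower and 23.1% higher. Of 974 genes that overlap another gene elsewhere but have a unique 3′ end 24.3% were lower and 25.3% higher, and of the 10799 with no overlap 24.5% and 27.5%. Where the first 500 bases were all shared the shares turned round, with 10 of 75 genes lower (13.3%) and 32 higher (42.7%).

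The gene with the largest bound had no overlap in the table. MIR5047, a microRNA precursor of 100 bases at chr17:62497332-62497431, had 1056, 878 and 943 counts in input and none in any IP or IgG library. At a floor of 3 counts per library IP was at least 101-fold lower (edgeR adjusted p = 3.61e-13). Most low counts were even, so 3 counts may stand for fewer than 3 fragments. The bounds given here and below may then be too large. It lies inside DDX5, which encodes an RNA helicase, and so does MIR3064. The reads counted there come from poly(A) RNA, so the entry need not report the mature microRNA, whose sequence in RefSeq (GRCh38.p14) is given with its seed in capitals.
hsa-miR-5047, chr17:64501230-64501250 (-): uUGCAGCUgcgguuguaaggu
TYMS, thymidylate synthase, had 865, 684 and 918 counts in input and none in IP or IgG, at least 86.4-fold lower, and its last 500 bases are all shared, mostly with ENOSF1 on the other strand. CCNE2, cyclin E2, had 736, 695 and 732 counts in input, none in IP and 6, 6 and 8 in IgG, at least 76.2-fold lower. In all 15 genes had no count in 1 of the 2 groups and a mean of at least 100 counts, and in each the empty group was IP. The input libraries were deeper than the IP libraries, so a gene empty in IP meets this mean at a lower CPM.

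**Figure D2:**
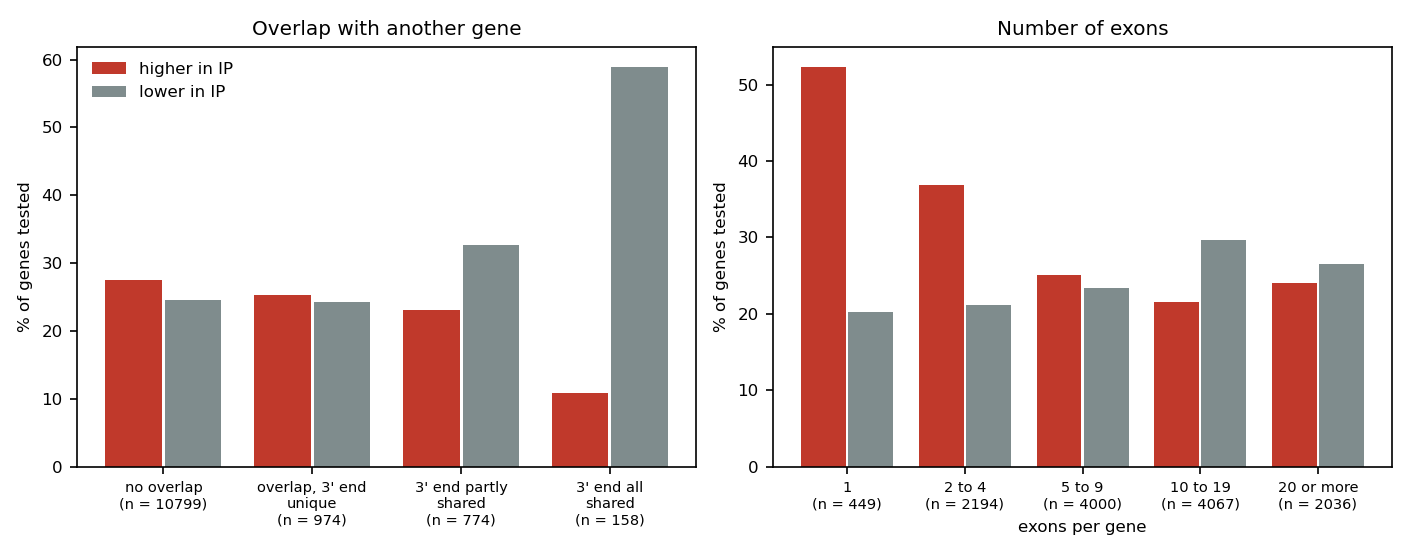
Share of tested genes that were higher (red) or lower (grey) in siTDP43 IP than in input, by overlap of exons and of the last 500 exonic bases with another gene (left) and by number of exons (right). Genes with a wholly shared 3′ end reached 58.9% lower, and single-exon genes 52.3% higher.

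Exonic GC content was related to enrichment across all genes. In the quintile of genes with the lowest GC content (30.9 to 41.5%) 15.1% were higher and 32.9% lower, with a median log2 change of -0.47, and in the quintile with the highest (58.6 to 76.8%) 48.2% were higher and 12.5% lower, with a median of 0.95. The 3 IP replicates gave medians between 0.83 and 0.98 for the latter. IgG over input ran the same way, from -0.99 to 0.72 with zero groups at their bound, and IP over IgG ran from 0.50 to -0.01. Across genes, which are not independent replicates, Spearman's rho with GC content was 0.274 for IP over input, 0.250 for IgG over input and -0.128 for IP over IgG. For IP over input rho was 0.236 with the share of cytidine and 0.286 with the share of guanosine, and with the share of C among G and C it was 0.034. The inputs moved with GC content too. In the most GC-rich quintile the siTDP43 inputs were below the WT inputs by a median log2 change of -0.65, and in the least GC-rich quintile they were above them by 0.33. The part of this shift in the enrichment of GC-rich genes was not tested.

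**Figure D3:**
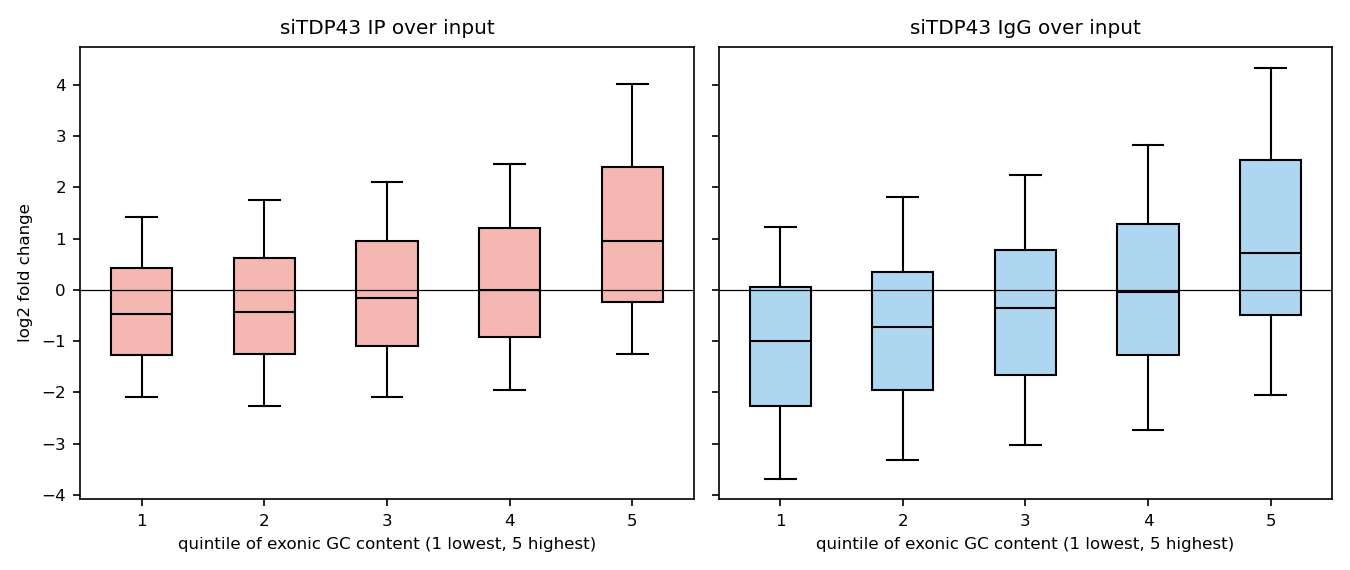
Log2 changes of siTDP43 IP over input (left) and IgG over input (right) by quintiles of exonic GC content, with genes at 0 in a group set at their bound. Lines are medians, boxes the interquartile range and whiskers the 10th and 90th percentiles, and the median rose from -0.47 to 0.95 on the left and from -0.99 to 0.72 on the right.

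Among the 384 genes more than 16-fold higher in IP, 259 (67.4%) were in the most GC-rich quintile, and their median input level was 0.306 CPM. Of these 384 genes, 258 were also called higher in IgG over input, and IP was above IgG for 164 and below it for 63. The same calls were made for 24.7%, 34.0% and 15.0% of all genes tested. For the 384 genes the median in siTDP43 input over WT input was -1.93, so the highest enrichments were found for messages that were scarce in the siTDP43 inputs. This median shares its siTDP43 input libraries with the enrichment.

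Structure classes differed as well. Of 449 single-exon genes tested 52.3% were higher and 20.3% lower (median 1.21, or 1.08 with zero groups at their bound), and the median fell to 0.34 for 2 to 4 exons, -0.05 for 5 to 9 and -0.36 for 10 to 19, while it was -0.12 for 20 or more. By exonic length the shortest quintile (up to 1775 bases) had a median of 0.34 and the longest quintile one of 0.17, whereas the middle quintile (2610 to 3675 bases) had -0.41. Within the most GC-rich quintile, between 45.3% and 55.4% of genes were higher in each of the 5 length classes, so the GC pattern was present at every length. Genes with a UG repeat, the motif TDP43 binds, were called higher somewhat less often than genes without it. Of 8567 genes with TGTGTG on the sense strand of their exons 25.5% were higher and 26.4% lower, and of 4179 without it 29.3% and 23.3%.

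The messages of the cytosolic ribosome held more of the counts than any other list, in input and in IP. Of 77 tested genes for its proteins 61 were higher in IP and none was lower, and the median log2 change was 1.87, between 1.81 and 1.86 in the separate replicates. They held 11.8% of the input counts, 28.5% of the IP counts and 31.4% of the IgG counts. RPS2 had 413, 389 and 390 CPM in input, 8722, 7961 and 7910 in IP and 9952, 9647 and 9282 in IgG. IP stood 4.37 ± 0.06 above input on the log2 scale, with IgG slightly higher still (IP over IgG -0.23 ± 0.05). RPLP2, of the ribosomal stalk, rose by 3.60 ± 0.07, RPS6, the target of S6 kinase, by 0.81 ± 0.05, and RPL3, at the peptidyl transferase centre, by 0.17 ± 0.05, which turned to -0.17 with totals in place of TMM. RPL15 had -0.20 ± 0.05. RPL17, the lowest at -0.54 ± 0.19, shares most of its exons with a read-through entry, which leaves 40.3% of its bases unique. Against IgG none of the 77 was higher in IP and 2 were lower, with a median of -0.29.

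Mitochondrial messages of nuclear origin went partly the same way. Of 75 genes for subunits of oxidative phosphorylation 33 were higher and 5 lower, with a median of 0.81 in IP over input and 1.01 in IgG over input. ATP5I, a small subunit of ATP synthase, had 231, 217 and 258 CPM in input, 4055, 3752 and 3912 in IP and 8835, 8619 and 9001 in IgG, so the control pull-down held more of it than the antibody pull-down (IP over IgG -1.17 ± 0.06). NDUFB1 of complex I rose by 3.14 ± 0.08. The lowest members were SDHD (-1.80 ± 0.09) and SDHA (-1.70 ± 0.08), both of succinate dehydrogenase, and ATP5B, the catalytic beta subunit of ATP synthase, had -0.67 ± 0.05. Across the 75 genes Spearman's rho of the log2 change was -0.507 with exonic length and 0.296 with GC content. Of 76 genes for mitochondrial ribosomal proteins 14 were higher and 6 lower (median 0.07), from MRPL23 at 4.94 ± 0.08 to MRPL3 at -2.11 ± 0.08 and MRPL49 at -3.79 ± 0.13. Spearman's rho with length was -0.442 there.

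The aminoacyl-tRNA synthetases and the glycolytic enzymes were the lists with the lowest medians among those of 7 or more genes. Of 37 synthetases 2 were higher and 19 lower (median -1.02 in IP over input and -1.07 in IgG over input). IARS, which charges isoleucine tRNA, had 734, 750 and 736 CPM in input and 203, 230 and 253 in IP, a change of -1.70 ± 0.09. The mitochondrial enzymes were at both ends, with AARS2 (-2.52 ± 0.21) and TARS2 (-2.28 ± 0.10) lower and CARS2 higher (3.18 ± 0.21).

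Of 17 glycolytic genes none was higher and 7 were lower (median -0.89). The lactate dehydrogenase genes, which encode the subunits of one enzyme, had unlike values. LDHA had 2525, 2648 and 2754 CPM in input and 529, 620 and 647 in IP, while LDHB had 2824, 2813 and 2952 in input and 3153, 2963 and 2920 in IP. LDHA fell by 2.14 ± 0.07 on the log2 scale, and LDHB was at 0.07 ± 0.05 (adjusted p = 0.165), with GC contents of 45.6% and 47.3%. Their difference was not tested. ALDOC had -2.55 ± 0.23 and GAPDH, the usual reference message, -0.55 ± 0.05. Among 40 heat shock chaperones 7 were higher and 8 lower, and HSP90AA1 (3.10 ± 0.05) and HSP90AB1 (0.39 ± 0.04), which encode the inducible and constitutive cytosolic HSP90, and HSPA8 (-0.68 ± 0.06) covered the range of the abundant members.

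Genes of nuclear and developmental function were mixed. Of 35 HOX genes, the homeobox transcription factors of the body axis, 23 were higher and 3 lower, with a median of 1.50 in IP over input, 0.32 in IgG over input and 0.12 in IP over IgG. HOXB2 had 0.783, 1.25 and 1.42 CPM in input, 36.2, 34.3 and 39.2 in IP and 17.9, 21.4 and 18.6 in IgG, and was higher in IP than in both (4.99 ± 0.21 and 0.92 ± 0.20 on the log2 scale, the latter under a 2-fold change). HOXA5 was 1.50 ± 0.13 above input and 1.24 ± 0.15 above IgG, which makes it one of the genes called against both. HOXC13 was 3.39 ± 0.18 above input and below IgG by a log2 change of -2.31 ± 0.16, and HOXA9 (-4.07 ± 0.38) shares its whole 3′ end with a read-through entry. Of 396 ZNF zinc finger genes 73 were higher and 163 lower (41.2%, median -0.56), and 140 of them had no IgG or no input count. ZNF503 (5.97 ± 0.13), ZNF784 (5.39 ± 0.28) and ZNF593 (2.76 ± 0.06) rose, and ZNF41 had 13.1 ± 2.17 CPM in input and no count in IP or IgG.

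Of 19 immediate early genes 9 were higher (47.4%) and 4 lower (21.1%), beside 26.8% and 25.4% of all genes. The AP-1 gene JUND (4.93 ± 0.18) and IER5 (4.23 ± 0.15), both single-exon and GC-rich at 69.7% and 62.1%, rose, and MYC (-1.27 ± 0.11) and KLF10 (-2.01 ± 0.17) fell. Of 17 replication-dependent histone genes, whose messages mostly lack a poly(A) tail, 8 were higher (47.1%), among them HIST1H4C at 3.23 ± 0.09, and 3 lower (17.6%). Of 60 genes for cyclins, their kinases and DNA replication 5 were higher (8.33%), CDT1 among them (3.11 ± 0.12). In this list 14 were lower, CCNB1 among them (-1.27 ± 0.06), a share of 23.3% near the 25.4% of all genes. MCM7 had -0.41 ± 0.07. Of 33 hnRNP and SR protein genes 12 were higher (36.4%) and 7 lower (21.2%), with HNRNPAB at 3.57 ± 0.08 and HNRNPK at -1.71 ± 0.06. HNRNPC had -0.89 ± 0.05, which is -1.23 with totals in place of TMM.

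The remaining lists are given beside the background of 26.8% higher and 25.4% lower. Of 54 translation factor genes 14 were higher and 9 lower, of 35 proteasome genes 4 and 4, or 11.4% each way (PSMB10 2.05 ± 0.12, PSMD12 -1.83 ± 0.09) and of 26 collagen and laminin genes 6 and 7. Of 337 uncharacterised LOC entries 123 were higher (36.5%) and 85 lower (25.2%), and of 80 long intergenic and antisense RNA entries 30 (37.5%) and 17 (21.2%). Of the 8 HEK293 lineage markers tested 2 were higher and none lower, and 1 of the 3 tested markers of other cell types was higher.

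**Figure D4:**
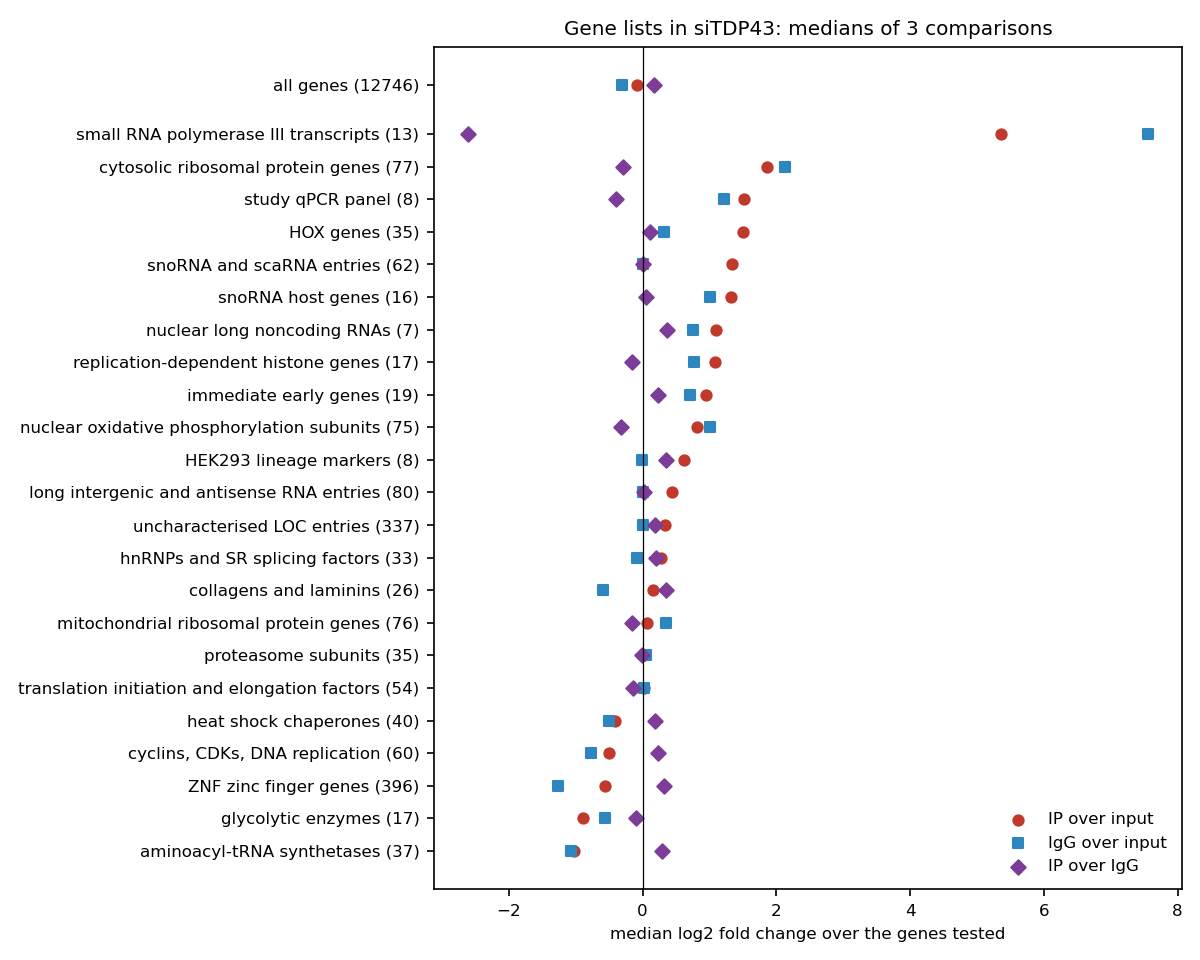
Median log2 change of each gene list with at least 7 genes tested in siTDP43 IP over input (circles), IgG over input (squares) and IP over IgG (diamonds), with the number of genes tested and genes at 0 in a group set at their bound. Small RNA polymerase III transcripts and cytosolic ribosomal protein genes lie furthest right of these lists in both comparisons with input, and the aminoacyl-tRNA synthetases furthest left in IP over input.

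Genes above both input and IgG were unevenly spread over the lists. Beside 10.3% of all genes, they were 8 of 35 HOX genes (22.9%), 19 of 62 snoRNA and scaRNA entries (30.6%), 66 of 337 LOC entries (19.6%) and 102 of 449 single-exon genes (22.7%). No cytosolic ribosomal protein gene of 77, no oxidative phosphorylation subunit of 75, no mitochondrial ribosomal protein gene of 76 and no synthetase of 37 was among them. By GC content the share was 8.08% in the lowest quintile and 16.7% in the highest. In IP over IgG a group was at 0 for 34 of the snoRNA and scaRNA entries and 151 of the LOC entries. The same held for 144 single-exon genes, 4 HOX genes and 2151 of all genes. With these at their bound the medians were 0.0, 0.18, 0.05 and 0.12, and 0.17 over all genes. How many calls against both references rested on such zeros was not counted. CHMP4B had 1.31, 1.45 and 1.42 CPM in input, 106, 117 and 122 in IP and 55.2, 49.1 and 55.8 in IgG, so its 3 groups did not overlap. DNAJB2, an HSP70 co-chaperone, had 0.533 ± 0.237 CPM (SD) in input, 17.95 in IP and 4.10 in IgG, with log2 changes of 5.03 ± 0.35 and 2.12 ± 0.38. HOXA10 (1.40 ± 0.10 and 1.16 ± 0.12) and COL6A1 (1.66 ± 0.27 and 2.38 ± 0.41), which encodes a chain of collagen VI, were also above both.

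Noncoding hosts and the small RNAs in their introns did not move as a unit. Of 16 host genes of small nucleolar RNAs (snoRNAs), which guide the modification of other RNAs, 9 were higher and 1 lower (median 1.32). SNHG8 rose by 2.77 ± 0.07, SNHG5 by 2.32 ± 0.07 and GAS5, whose exons form a growth arrest-related transcript, by 0.90 ± 0.06. GAS5 had 303, 294 and 306 CPM in input and 583, 552 and 551 in IP. Of the 9 tested snoRNA entries inside GAS5, 5 were lower in IP and 1 was higher, and SNORD80 had 17.8, 17.6 and 21.0 CPM in input, 5.26, 7.43 and 6.69 in IP and no count in IgG (-1.55 ± 0.21). Over the table, box C/D entries split into 12 higher and 13 lower of 31, box H/ACA entries into 18 higher and 4 lower of 25, and all 6 scaRNAs, the guides of Cajal bodies, were higher. SCARNA22 had 1.04 ± 0.08 CPM in input, 19.5 ± 2.59 in IP and 122 ± 8.95 in IgG. Reads of a small RNA and of its unspliced host cannot be told apart at these entries. Of 5 microRNA precursors tested among 1225 entries 2 were higher and 3 lower. The 1 spliceosomal snRNA tested was higher. Of 7 nuclear long noncoding RNAs 4 were higher and none lower, with MALAT1 at 1.79 ± 0.13 and NEAT1, the scaffold of paraspeckles, at 1.77 ± 0.22 but lower than IgG (-1.95 ± 0.22). TUG1 had 0.74 ± 0.19 over input and 2.42 ± 0.30 over IgG.

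The enzyme and its partners were measured too. NAT10 had 96.1, 90.1 and 92.7 CPM in input and 54.8, 47.9 and 60.5 in IP, below input in every library by a log2 change of -0.78 ± 0.10, which is under the 2-fold threshold and became -1.12 with totals in place of TMM. In WT it was at 0.17 ± 0.10 (adjusted p = 0.117), with an interaction of -1.10 ± 0.15 (adjusted p = 2.78e-08). THUMPD1 was at -0.10 ± 0.14. PCBP1 and PCBP2, poly(C)-binding proteins that the study examined as NAT10 partners, rose by 2.35 ± 0.08 and 2.47 ± 0.07, and in IgG over input by 1.80 ± 0.08 and 2.86 ± 0.07. All of the last 500 bases of PCBP2 are shared with MAP3K12, which is unlike most of that class. TARDBP itself had -0.52 ± 0.11.

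Of the transcripts that the study followed by qPCR, 5 of 8 were higher and none lower. RRBP1 (1.51 ± 0.25), RBBP6 (1.54 ± 0.15), UPF3B (1.53 ± 0.10), ZFP36L2 (2.16 ± 0.21) and LAMP1 (4.18 ± 0.26) rose over input, and the abundant reference EEF1A1 was not called (adjusted p = 0.973). UPF3B, a factor of nonsense-mediated decay, had 30.7, 29.0 and 31.3 CPM in input, 86.6, 80.0 and 96.4 in IP and 41.9, 39.6 and 45.2 in IgG and was the member above IgG by more than 2-fold (1.05 ± 0.12). RRBP1 and ZFP36L2 were below IgG by more than 2-fold (-1.92 ± 0.25 and -1.35 ± 0.21). The panel was chosen by the study with these libraries in view, so its counts are not independent evidence of direction.

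Enrichment in siTDP43 was set against enrichment in WT by the interaction term of a fit of all 17 libraries. Over 15165 genes, 4770 (31.5%) had higher IP over input in siTDP43 and 5511 (36.3%) lower. Among the cytosolic ribosomal protein genes 75 of 77 were higher and 2 lower, where the median was 1.87 in siTDP43 and -0.69 in WT. For the oxidative phosphorylation subunits the split was 70 and 1 of 75 (0.81 and -0.69), for the mitochondrial ribosomal proteins 65 and 7 of 76 (0.07 and -1.01) and for the snoRNA hosts 12 and 3 of 16 (1.32 and -0.37). Of 14 small RNA polymerase III transcripts 9 were higher and none lower. The siTDP43 medians come from the fit of 9 libraries and the WT medians from that of 17. Over all genes the siTDP43 median was -0.09 in the former and -0.35 in the latter. The gap between the medians therefore differs from the interaction, whose median was 2.18 for the cytosolic ribosomal protein genes.

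Other lists went the opposite way or neither. Of the HOX genes 6 were higher and 15 lower of 36, of the hnRNP and SR genes 9 and 20 of 34, and of the nuclear long noncoding RNAs none and 6 of 8, with NEAT1 at 5.21 ± 0.10 in WT and an interaction of -3.61 ± 0.17 (adjusted p = 4.52e-20). RRBP1 (6.17 in WT), RBBP6 (5.82) and UPF3B (5.20) had interactions of -4.79 ± 0.20, -4.44 ± 0.14 and -3.83 ± 0.10. In PCBP1 no interaction was called (-0.15 ± 0.09, adjusted p = 0.143). The inputs differ between genotypes for many of these genes, as for RPS2, whose siTDP43 input was below the WT input by a log2 change of -3.29 ± 0.05, and an interaction holds a change of input as well as one of IP.

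**Figure D5:**
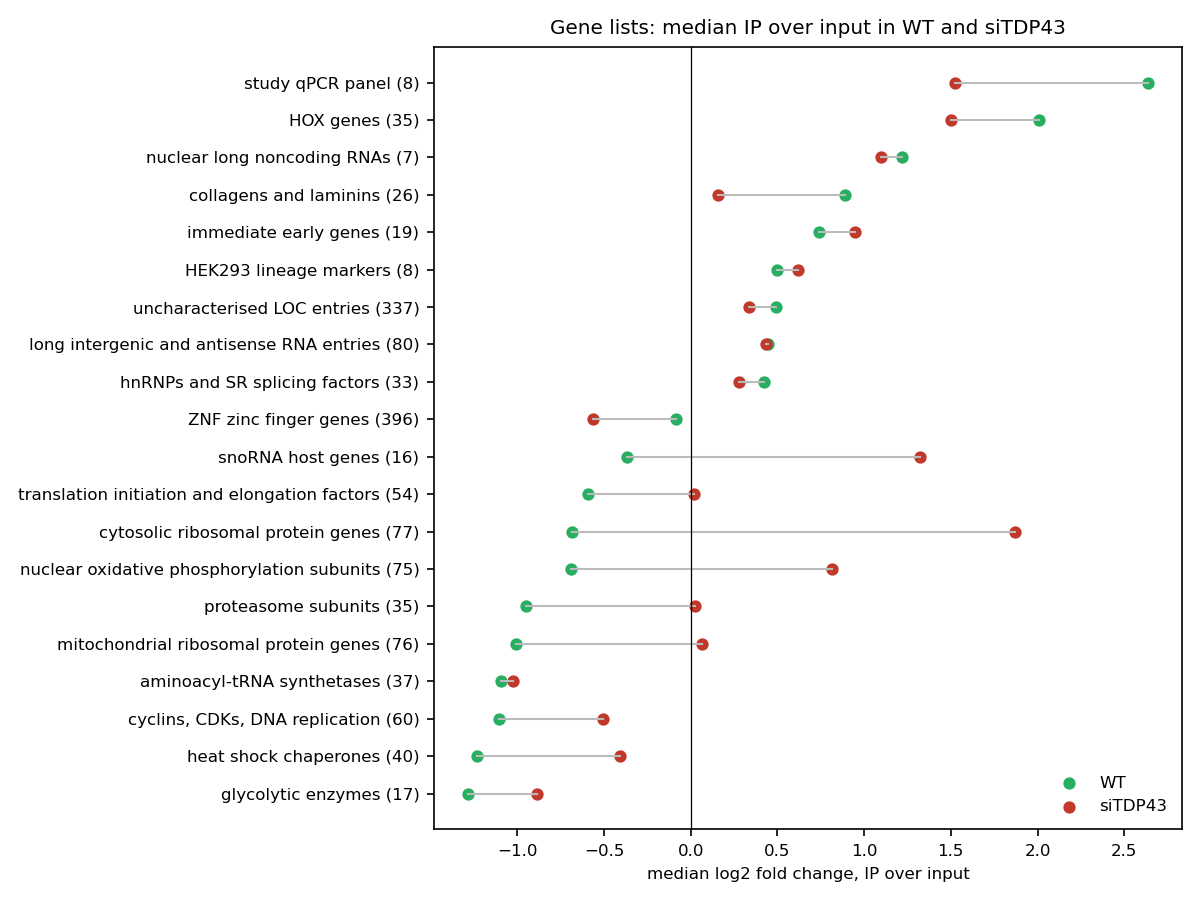
Median log2 change of IP over input for each gene list in WT (green) and siTDP43 (red), joined by a line, with the number of genes tested in siTDP43 and without lists in which more than 10% of genes had a group at 0. Cytosolic ribosomal protein genes moved from -0.69 in WT to 1.87, and the aminoacyl-tRNA synthetases lay near -1 in both. WT values come from the fit of 17 libraries and siTDP43 values from that of 9, so a line is not the interaction.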

How the data were processed

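Input, anti-ac4C IP and IgG libraries of HEK293T poly(A) RNA were sequenced (acRIP-seq). Per the study's methods and processing notes, the authors prepared SMART-seq2 libraries, trimmed with Trim Galore 0.6.7, aligned to hg19 with STAR 2.7.10a and ran featureCounts 2.0.2 on unique alignments. The notes also name another build, but the exon positions in the table are human. The deposited values are raw counts for each gene, with no normalization. Of counts from 1 to 20 in the siTDP43 libraries, 83.3 to 95.9% were even. Molecular identifiers are not mentioned, so bounds cover counting error only. As most low counts were even, 3 counts may be fewer than 3 fragments, and bounds may be too large. No spike-in value enters the fits, and every enrichment is relative to the rest of its library.

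Groups came from sample titles. The 9 siTDP43 libraries were fitted in R 4.3.3 with edgeR 4.0.16 (TMM, filterByExpr with a minimum count of 10, quasi-likelihood F test, two-sided, Benjamini-Hochberg over all genes tested), and the genotypes in 1 fit of all 17. A call means an adjusted p under 0.05 with more than 2-fold change, and for interactions the p alone. On simulated counts of the IP over input comparison, with 100 of 12746 genes changed 4-fold and 100 changed 8-fold, 100% of each were recovered. No gene with a low expected count was among those changed. All genes were given 1 spread between replicates, and simulated counts were not made mostly even. Recovery of genes near 0 in input, such as BCYRN1 and FAM176B, was therefore not tested. Recovery was not tested with as many genes changed as the 3414 higher and 3239 lower called in IP over input. Exon sequence was read from GRCh37 at the table's positions. Replicates had a chi-square per degree of freedom of 3.56 to 9.17, so none was an exact copy of another. That measure takes each count as 1 independent fragment, and most low counts were even. It therefore cannot tell whether replicates were technical.

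Named genes were 3 leading genes, the ac4C enzymes and partners, the study's qPCR panel, the 12 largest rises and falls (a mean of at least 100 counts, at least 10 in each of the 6 libraries, groups not overlapping), the 3 largest bounds and, per list, members with the highest and lowest changes and the highest counts. RPPH1, SNAR-C4, the neighbours of overlapping genes and the pairing of LDHA with LDHB were chosen after their values were seen. Genes, lists and classes were chosen with earlier results of these data known, and the 27 lists carry no test. DESeq2 1.42.0 and limma 3.58.1 on log2(FPKM + 1) were alternatives. Classes by overlap of gene ends and by motif, and medians with zero groups at their bound, were chosen after seeing the data. Some items that the naming rule would give are not reported here.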

Additional observations from a re-analysis of the deposited data

Results flagged for a closer look

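Of 97 named genes, 88 had an interaction at an adjusted p under 0.05, 58 with higher and 30 with lower enrichment in siTDP43. Over all 15165 genes of that fit, 31.5% were higher and 36.3% lower. Many named genes were chosen by their change or counts in siTDP43, so these counts do not stand for all genes. In 8 of the 88 the signs were opposite, and in 5 of these IP over input also passed an adjusted p under 0.05 within each genotype. For these 5 the interaction of the fit of all 17 libraries (edgeR, adjusted p given for each) tested the difference. RPS6 had log2 changes of 0.81 in siTDP43 and -1.17 in WT, a difference of 1.82 (adjusted p = 1.76e-22). As CPM of the library total, it went from 4483 in input to 6212 in IP in siTDP43 and from 3200 to 1539 in WT. RPL3 had 0.17 and -1.78, a difference of 1.8 (adjusted p = 3.73e-22), and 0.17 became -0.17 with totals in place of TMM, so its opposite sign rests on the scaling. GAS5 had 0.90 and -1.98, a difference of 2.73 (adjusted p = 2.54e-26), and its input level also differed, at 369.2 CPM of total in siTDP43 and 1457 in WT. SNHG8 had 2.77 and -0.29, a difference of 2.9 (adjusted p = 1.29e-26). AARS2 went the other way, with -2.52 in siTDP43 and 1.46 in WT, a difference of -4.13 (adjusted p = 1.52e-18), on inputs of 48.98 and 17.85 CPM of total. Differences come from the fit of 17 libraries and the siTDP43 values from that of 9, so they do not subtract exactly. What lies behind these differences was not tested.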

How the results depend on the processing

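The counts of genes higher and lower in IP than in input stayed within 1.5 times of 3414 and 3239 under the other settings tried, except that limma on log2(FPKM + 1) gave 1802 higher, beside 2972 lower. The pseudocount lowers folds of scarce genes by construction. That setting also gave 1866 genes higher in IgG over input and 535 above both references. A mean of at least 50 counts left 741 above both, with fewer genes tested, and removing the trend with GC content gave 4798 genes higher and 3489 lower in IgG over input, against 3145 and 5227, which turns the larger share from lower to higher, and the cause was not tested. Leaving out 1 library at a time gave 3399 to 3516 genes higher and 3213 to 3523 lower in IP. Deviations of same-numbered input and IP libraries from their group means had r of 0.0024 to 0.0467. Pairs with unlike numbers had r of -0.0563 to 0.0211. Such small values cannot tell whether same-numbered libraries came from the same RNA. The replicate block gave 3345 higher and 3222 lower for IP over input, 3102 and 5187 for IgG over input, 1250 above both references and 4693 and 5389 for the interaction, and changed none of the named genes' calls.

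Named genes that changed sign had changes near 0 or were moved by the scaling. EEF1A1 was at 0.08 with the stricter filter, 0.008 with halved counts and 0.401 without the GC trend, and leaving out 1 library gave -0.134 to 0.098. LDHB (0.07) was at -0.005 with DESeq2 or its size factors, -0.266 with totals and with limma, and -0.081 in all 17 libraries. RPL3 was at -0.168 with totals and with limma. Without the GC trend THUMPD1 was at 0.343 and RPL15 at 0.069. RRBP1 (0.716), RBBP6 (0.862) and NEAT1 (0.869) fell below the fold threshold with limma. CCNB1 was at -0.885 without the GC trend, also short of the fold threshold. Among the 27 lists the median relative to all genes changed sign under some setting for proteasome, chaperone, collagen and laminin genes and the ac4C writers. The IgG libraries are the shallowest, and 2031 genes gave only a bound in their comparison with input.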

Other observations

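Exons that hold TGTGCG on the sense strand marked a modest shift. Of 3985 tested genes with it 30.5% were higher and 23.5% lower in siTDP43 IP than in input, and of 8761 without it 25.1% and 26.3%. IgG over input shifted the same way, with 27.3% higher and 39.2% lower with it and 23.5% and 41.8% without it. The shift was therefore not particular to the anti-ac4C antibody. Genes with the motif were longer, with a median exonic length of 3824 against 2819 bases, and richer in GC, at 52.4% against 47.5%. For TGTGTG, given above, the difference in IP over input ran the other way.

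WT1, a transcription factor of the developing kidney, had 0.652, 0.725 and 0.769 CPM in siTDP43 input, 15.8, 13.7 and 11.7 in IP and no count in the 3 IgG libraries, and LHX1, another kidney regulator, showed the same order at a lower level. Both were chosen after their values were seen.

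Small RNA entries in introns did not all move with their hosts, as in these 3 pairs, chosen after their values were seen. SNORD73A had a log2 change of -3.49 in IP over input inside RPS3A, which was at 1.37. SNORA70 was at -1.80 beside -0.09 for RPL10, and SNORA58 stood at 3.31 inside MRPL3, which was at -2.11.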
